A study of Mus musculus with 6 samples.

Results

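The expression of 54 genes that copy the genome was examined after knockdown of CTCF, a DNA-binding protein that organises chromatin loops. The samples are labelled as mouse female germline stem cells (FGSCs), a label that is set against cell type markers below. Earlier results of these data were known when the genes were chosen. The choice was by name, for known roles at replication origins, at the fork and in nucleotide supply. It was made out of 24732 gene symbols with an FPKM value (fragments scaled to transcript length and to sequencing depth). The 54 genes fall into 11 role groups that run from the origin recognition complex to nucleotide supply. The cells were of strain C57BL/6, had been kept for more than 20 passages on inactivated STO feeder cells, a mouse fibroblast line, and were divided into a control group (n = 3) and a group that received a lentiviral short hairpin RNA against CTCF (shCTCF, n = 3). The study's methods describe FGSC lines from neonatal Ddx4-Cre;mT/mG mice, in which the Ddx4 promoter drives Cre in germ cells, and a puromycin selection after infection. The vector that the control cells received is not given in the sources used here. Nothing states that the replicates came from separate cultures, so the p-values measure only the spread between these samples, which may be technical.

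Before S phase, the origin recognition complex (ORC) together with CDC6 and CDT1 loads the MCM2-7 helicase onto DNA, a step called licensing that geminin blocks by binding CDT1. The CDC7-DBF4 kinase, CDC45, MCM10 and the GINS complex then switch the helicase on. Polymerase alpha-primase starts each new strand, polymerase epsilon extends the leading strand and polymerase delta the lagging strand, both held on DNA by the PCNA ring, which the RFC complex loads. Ribonucleotide reductase and thymidylate synthesis supply the deoxynucleotides. Many of these genes are known targets of E2F transcription factors.

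The promoter sequences were searched for E2F words because that shared input is the best-known feature of the group. The words were TTTGGCGC, TTTCCCGC, TTTCGCGC and TTTGCCGC, read on both strands in RefSeq windows (GRCm38.p6) that run from 250 bases before to 50 bases after each start. A window was at hand for 45 of the 54 genes and not for Gins1, Gins2, Gins4, Gmnn, Mcm4, Pole, Prim2, Rfc2 and Tipin. A word was found for 16 of these 45 genes (35.6%), compared with 704 of all 27025 genes with a window (2.6%). That comparison set was not limited to genes expressed in these samples. The CCAAT box, a common promoter element, was found for 23 of the 45 genes (51.1%) and for 41.1% of all genes. The E2F words were present in genes that fell after CTCF knockdown, with 11 of 29, in genes that rose, with 2 of 5 (Orc1 and Cdc6), and in genes that did not pass the test, with 3 of 10, while Rfc4 was listed at 0 FPKM and not tested. A match describes letters in a window and is not a measured binding site.

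The 6 sequences below belong to the genes with an E2F word and the largest changes among those described in full, and all 6 genes fell. They are written on the strand of the gene, with the E2F words in capitals, and each was found once on its chromosome in mm9, the build of the deposited files. The stretches of Mcm7, Mcm6 and Pola1 lie before the start, and those of Pold1, Lig1 and Pole2 are 30-base sites at it or just after it. Bases are counted from the start of the RefSeq window, with negative positions before it.
Mcm6, chr1:130256313-130256412, minus strand, positions -130 to -31: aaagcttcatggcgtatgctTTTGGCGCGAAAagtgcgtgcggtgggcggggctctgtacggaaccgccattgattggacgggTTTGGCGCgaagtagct
Mcm7, chr5:138613197-138613296, minus strand, positions -185 to -86: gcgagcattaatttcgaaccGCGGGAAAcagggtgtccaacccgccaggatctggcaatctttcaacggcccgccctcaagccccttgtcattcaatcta
Pola1, chrX:90877553-90877652, minus strand, positions -158 to -59: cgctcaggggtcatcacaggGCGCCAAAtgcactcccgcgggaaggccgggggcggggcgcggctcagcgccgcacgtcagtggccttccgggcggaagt
Pold1, chr7:51804136-51804165, minus strand: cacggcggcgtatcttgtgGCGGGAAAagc
Lig1, chr7:13864190-13864219, plus strand: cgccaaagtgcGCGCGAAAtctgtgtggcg
Pole2, chr12:70329149-70329178, minus strand: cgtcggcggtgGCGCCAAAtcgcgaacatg
Mcm6 holds 3 words, of which the first pair overlap by sharing bases. In the deposited annotation Mcm6 spans 130228152 to 130256282 on the minus strand, so the printed stretch lies just outside the gene. The same holds for Mcm7 (138605811 to 138613111) and Pola1 (90550105 to 90877494). The sites of Pold1 and Lig1 lie inside the spans of their genes, and that of Pole2 crosses the gene's first base.

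The count table held between 1686052 and 7044272 fragments per sample, and control replicate 2 had the fewest. Ctcf itself was at 58.2, 56.1 and 53.5 FPKM in the controls and at 0.74, 0.55 and 0.629 FPKM in the shCTCF samples. It was lower in all 3 shCTCF samples, with a log2 fold change of -5.12 (SE 0.09, adjusted p = 1.1e-08, limma), and permuting the 6 labels gave an exact two-sided p of 0.1, which is the smallest that 3 against 3 samples can reach. The labelled cell type was checked against its markers. Of 12 germline markers, 9 were below 1 FPKM in all samples, among them Ddx4, Dazl, Pou5f1, Dppa3 and Gfra1, and only Etv5 reached 1 FPKM in every sample. By RT-PCR the paper found Ddx4 (as Mvh), Dazl, Pou5f1 (as Oct4), Dppa3 (as Stella), Gfra1 and Ifitm3 (as Fragilis) in its FGSCs. Here Ifitm3 was at 1.00, 0 and 1.21 FPKM in the controls and rose to 10.8, 11.1 and 10.4 FPKM after knockdown. Zbtb16 went the other way, from 1.15 to 1.99 FPKM in the controls to 0.281 to 0.291 FPKM. The values here do not bear out the label, which is kept as a name only. The stem cell factor receptor Kit was at 541 to 612 FPKM in the controls and 771 to 800 FPKM after knockdown, and the leukocyte gene Ptprc was at 83.7 to 117 and 109 to 122 FPKM. The summed level of 12 mast cell markers was 1482 to 1553 FPKM in the controls and 1503 to 1571 FPKM after knockdown. Most of it came from Kit and from Gata2, which was at 467 to 550 and 547 to 568 FPKM. Of the 12 markers, 6 were at 1 FPKM or more in all samples. The defining genes Fcer1a and Mrgprb1 were at 0, and Ms4a2, Mcpt4 and Tpsb2 were below 1 FPKM in every sample. Single mast cell markers moved in both directions within that sum, with Ctsg at 131 to 169 FPKM in the controls and 1.99 to 2.53 FPKM after knockdown, Cpa3 at 215 to 316 and 79.3 to 103 FPKM, and Hdc at 4.07 to 4.49 and 79.7 to 94.9 FPKM. The sum of 8 macrophage and pan-leukocyte markers was 191 to 215 and 321 to 347 FPKM, with 3 at 1 FPKM or more in all samples and Csf1r below 1 FPKM in each. The sum of 12 fibroblast markers, which feeder cells would carry, was 10.3 to 10.9 and 23.5 to 24.7 FPKM, with 1 marker at 1 FPKM or more in all samples, and most of the difference came from Col6a1, while Col1a1, Col1a2 and Col3a1 were below 1 FPKM in every sample. The part of these cell type markers in the results that follow was not tested.

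Most replication genes were lower after CTCF knockdown. On log2(FPKM + 1), 53 of the 54 genes had a mean of at least 1 FPKM and were tested, and 37 of them (69.8%) were lower, 5 (9.43%) were higher and 11 did not pass an adjusted p of 0.05 (limma, Benjamini-Hochberg over all 9976 genes tested). Of all genes tested, 44.2% were lower and 28.8% were higher. A change of at least 2-fold was seen in 21 genes that fell and in 1 that rose, Rrm2, compared with 14.9% of all genes lower and 11.3% of all genes higher by that much. The median log2 fold change of the 53 genes was -0.70, beside -0.17 for all genes. The 5 genes that rose were Orc1, Cdc6, Pcna, Fen1 and Rrm2. Because the samples were of bulk RNA, fewer cells in S phase and less of these mRNAs per cell cannot be told apart. In separate assays the paper reported less proliferation after CTCF knockdown and a smaller proportion of cells with EdU, a label of new DNA. The part of that difference in the values here was not tested.

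The scaling between samples bears on the weaker calls. Setting all samples to the same median of tested genes, which moved the median of all genes to -0.01, left 31 genes lower and 9 higher, and the median of the 53 genes was then -0.53. The genes gained as higher were Orc6, Gins4, Pole3 and Wdhd1, and those lost as lower were Orc2, Gins2, Prim1, Pole4, Rpa1 and Rpa2. Of the 37 lower genes, 28 kept that call under every one of the 15 other settings tried on FPKM in which they were tested, as did 4 of the 5 higher genes.

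**Figure D1:**
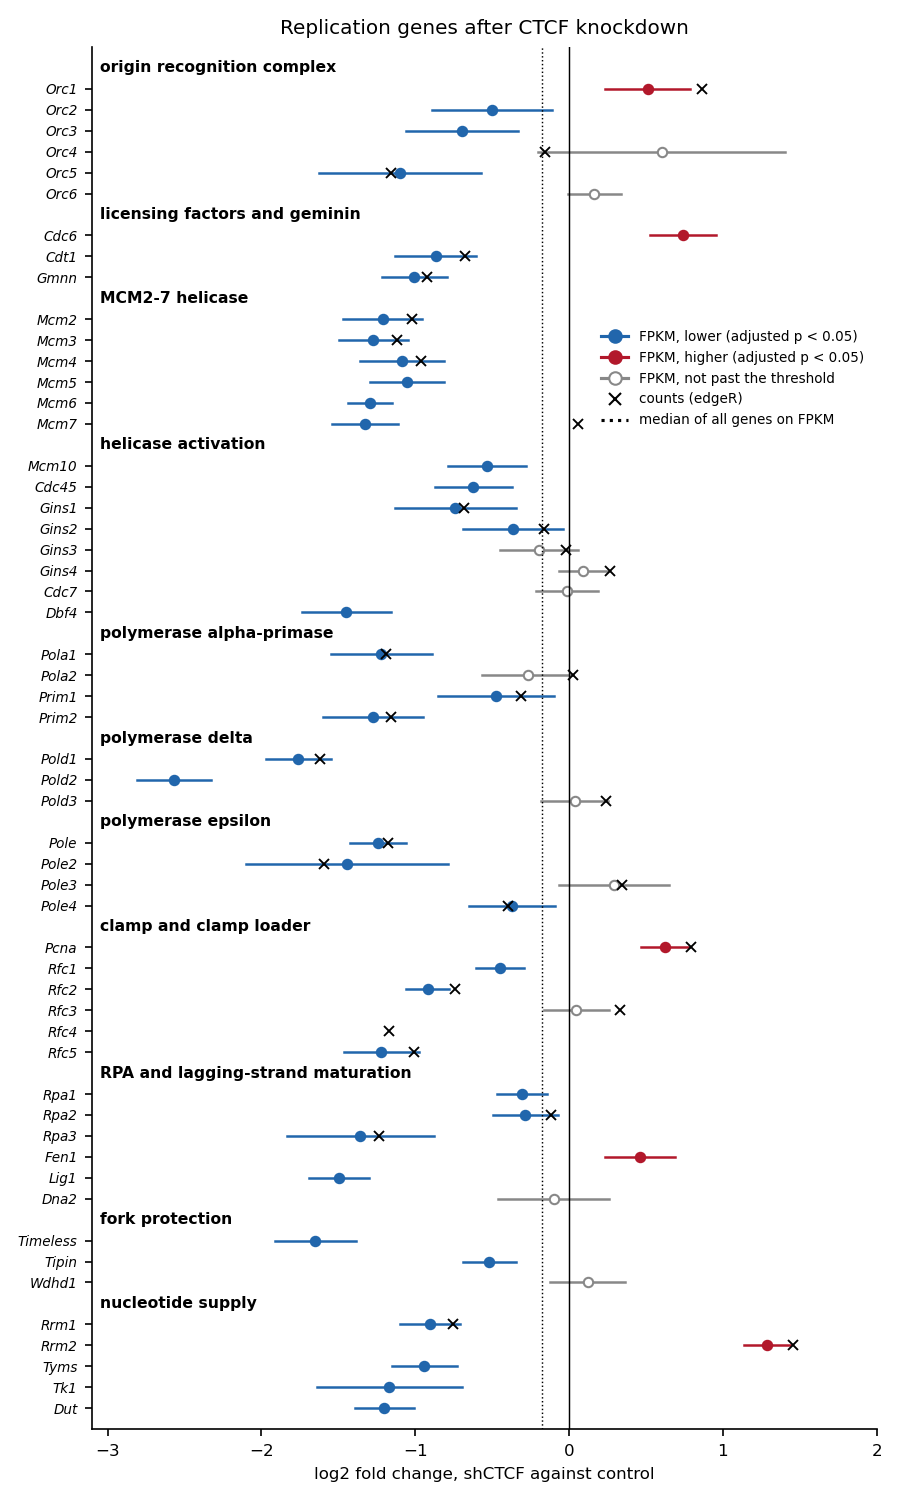
Log2 fold change of each replication gene, shCTCF against control (x axis), by role group (rows). Circles with bars give the FPKM estimate and its 95% confidence interval (n = 3 per group), crosses the estimate on counts, and the dotted line the median of all genes on FPKM, -0.17. The MCM2-7 genes lie together between -1.33 and -1.05 on FPKM, whereas the groups next to them are split.

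The 3 main subgroups were then compared, beside 44.2% lower and 28.8% higher among all genes tested. Of 15 origin licensing genes (ORC, CDC6, CDT1, geminin and MCM2-7), 11 were lower and 2 were higher, with a median log2 fold change of -1.0. Of 11 polymerase subunits, 8 were lower and 0 were higher with limma (also 0 at an unadjusted p under 0.05, but 2 on counts with edgeR), with a median of -1.22. Of 5 nucleotide supply genes, 4 were lower and 1 was higher, with a median of -0.94. The summed FPKM showed a different order, since the licensing genes went from 599 ± 10.9 FPKM to 307 ± 15.5 FPKM (SD, n = 3) and the polymerases from 273 ± 10.6 to 170 ± 2.21 FPKM. The nucleotide supply genes went from 190 ± 7.16 to 224 ± 5.09 FPKM, above the controls, because Rrm2 alone took up most of that sum after knockdown. The sum over all 54 genes was 1674 ± 8.18 FPKM in the controls and 1179 ± 29.7 FPKM in the shCTCF group.

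The origin recognition complex did not move as 1 unit. ORC1 to ORC6 are the subunits that mark origins, with ORC1 as the cell-cycle-regulated member. Of the 6 genes, Orc2, Orc3 and Orc5 fell, Orc1 rose, and Orc4 and Orc6 did not pass the test. The share that fell, 50%, was near the 44.2% of all genes tested, and 16.7% rose beside 28.8% of all genes. Orc5 was at 37.8, 19.8 and 37.8 FPKM in the controls and at 13.5, 13.4 and 14.2 FPKM in the shCTCF samples. Control replicate 2 was far below the other controls but still above every shCTCF sample, and the log2 fold change was -1.10 (SE 0.23, adjusted p = 0.0029). Orc3 was at 14.7, 9.21 and 13.4 FPKM and then at 7.06, 7.09 and 7.29 FPKM, with no overlap and a log2 fold change of -0.70 (SE 0.16, adjusted p = 0.0043). Its call was lost when the single transcript row with the highest mean was used in place of the sum, at -0.36, and its exons overlap those of Akirin2. Orc6, a subunit that joins the complex loosely, was at 19.4, 20.5 and 18.9 FPKM and then at 20.9, 22.5 and 22.9 FPKM. The groups did not overlap, but the estimate was 0.16 (95% interval -0.01 to 0.34, adjusted p = 0.078), and it passed without control replicate 2, at 0.20, and with the same median in each sample, at 0.34. Orc4 was at 13.2, 4.68 and 14.5 FPKM and then at 15.3, 15.1 and 15.7 FPKM, with control replicate 2 far below the other controls and a wide interval of -0.20 to 1.41 (adjusted p = 0.15). Orc1 was the scarcest of the 6, with a mean of 3.66 ± 0.57 FPKM in the controls and 5.62 ± 0.424 FPKM after knockdown, a log2 fold change of 0.51 (adjusted p = 0.0051). Orc2 went from 39.4 ± 9.27 to 27.1 ± 1.68 FPKM with overlap of the groups, at -0.50 (adjusted p = 0.026), and this call was lost without any of control replicates 1 and 3 and shCTCF replicates 1 and 2, with estimates of -0.39, -0.40, -0.46 and -0.50, and in the single row with the highest mean, at -0.36. The median of the 6 genes was -0.17, that of all genes, and with the same median in each sample it turned to 0.01.

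The loading factors were split in the same way. CDC6 and CDT1 bring the helicase to ORC, and geminin holds CDT1 back. Cdc6 was at 6.54, 6.26 and 5.85 FPKM in the controls and at 11.1, 10.2 and 12 FPKM in the shCTCF samples, so that every shCTCF sample was above every control. Its log2 fold change was 0.74 (SE 0.09, adjusted p = 0.00017). Cdt1 was at 33, 42 and 32.5 FPKM and then at 17.6, 19.9 and 19.9 FPKM, a fall of all 3 samples with a log2 fold change of -0.87 (SE 0.11, adjusted p = 0.00023). Gmnn, which encodes geminin, was at 41.4, 37.7 and 37 FPKM and then at 17.1, 20.7 and 18.7 FPKM, at -1.0 (SE 0.09, adjusted p = 2.8e-05). The ratio of Cdt1 to Gmnn, factor to inhibitor, was 0.930 ± 0.165 in the controls and 1.02 ± 0.0515 after knockdown, within the spread of the controls. The ratio of Cdc6 to Cdt1 went from 0.176 ± 0.0248 to 0.582 ± 0.0612, with no overlap between the samples.

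The MCM2-7 helicase, the ring that unwinds DNA at the fork, was the most uniform group. All 6 genes fell by at least 2-fold on FPKM, with log2 fold changes from -1.33 (Mcm7) to -1.05 (Mcm5) and a median of -1.24. With the same median in each sample all 6 still fell, and 4 of them by at least 2-fold. Mcm7 was at 60.4, 74.5 and 62 FPKM in the controls and at 24.9, 26.4 and 25.2 FPKM in the shCTCF samples (-1.33, SE 0.09, adjusted p = 7e-06). Mcm6 was at 89.5, 91.2 and 86.8 FPKM and then at 34.2, 36.3 and 36.6 FPKM (-1.30, SE 0.06, adjusted p = 1.1e-06). In both genes the highest shCTCF value was less than the lowest control by a wide margin. The most abundant member was Mcm3, with 99.4 ± 11 FPKM falling to 40.5 ± 3.00 FPKM, and the least abundant was Mcm4, with 32.1 ± 4.33 falling to 14.5 ± 1.31 FPKM. The summed level of the 6 subunits went from 400 ± 29.9 to 167 ± 10.4 FPKM, 2.40-fold lower.

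**Figure D2:**
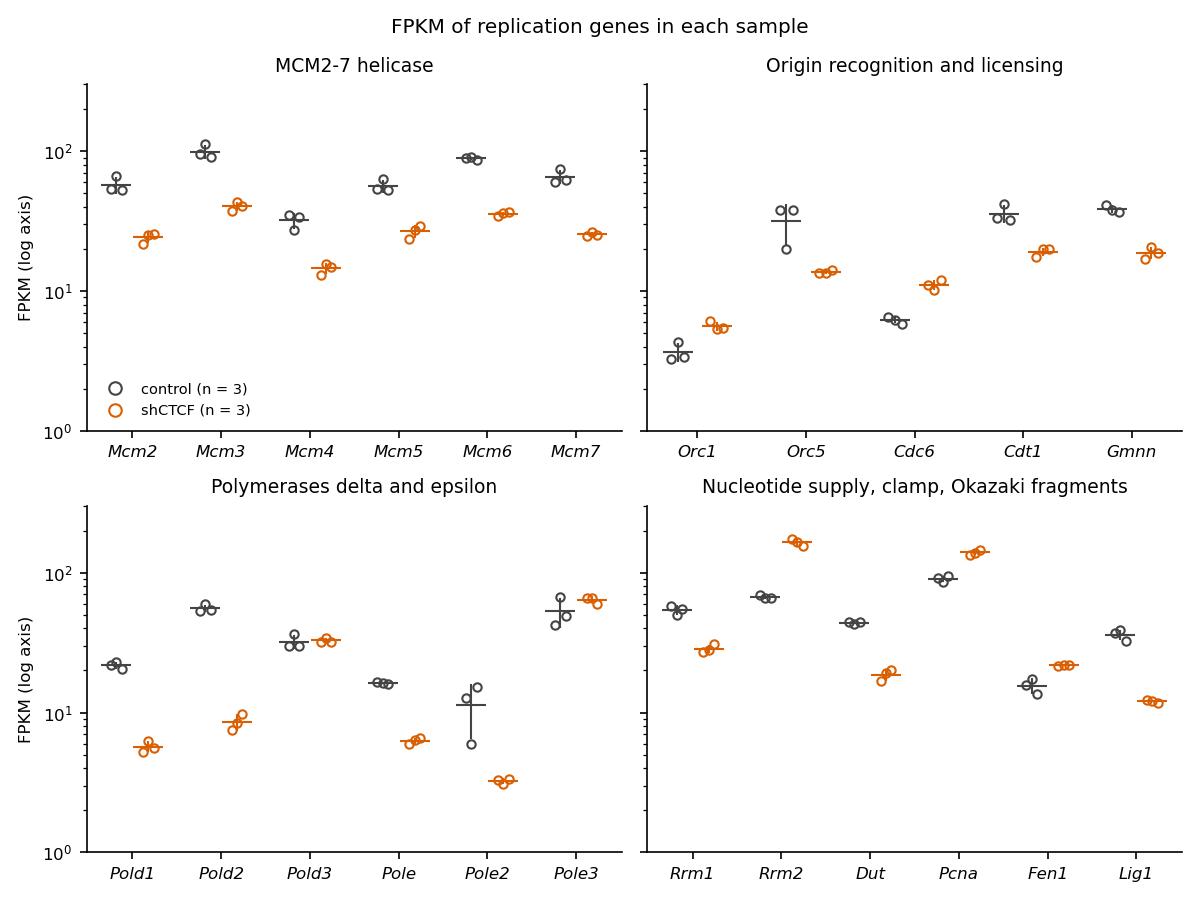
FPKM (log axis) of 23 replication genes in each sample, with 3 control samples in grey and 3 shCTCF samples in orange; the horizontal mark is the mean and the bar 1 SD. All 6 MCM2-7 genes are lower in every shCTCF sample, while Cdc6, Pcna, Fen1 and Rrm2 are higher in every shCTCF sample and Pold3 overlaps.

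Among the genes that switch the helicase on, the kinase and its partner differed. Dbf4, the regulatory subunit that makes the kinase active in S phase, was at 48.5, 35.9 and 48.4 FPKM in the controls and at 15.1, 14.8 and 16.5 FPKM after knockdown. It fell by 1.45 on the log2 scale (SE 0.12, adjusted p = 2.2e-05). Cdc7, the catalytic subunit, was at 14.4, 16.1 and 15.3 FPKM and then at 13.9, 16.1 and 15.5 FPKM. The groups overlapped, and the difference was -0.01 (95% interval -0.21 to 0.19, adjusted p = 0.89), with 0.16 when all samples had the same median. This is the sum over 4 transcript accessions, and the accession with the highest mean was at 8.34, 3.79 and 8.16 FPKM in the controls and at 10.9, 16.1 and 12.7 FPKM after knockdown. On that accession alone Cdc7 passed the test as higher, at 0.92 (adjusted p = 0.029). Another of the 4 went the other way, from 4.52, 10 and 7.12 FPKM in the controls to 0 in every shCTCF sample. The ratio of Dbf4 to Cdc7 went from 2.92 ± 0.607 in the controls to 1.03 ± 0.0881. Of the GINS subunits, Gins1 was at 10.3, 7.64 and 12.4 FPKM and then at 6.41, 4.88 and 5.48 FPKM (-0.74, SE 0.17, adjusted p = 0.0049). Gins4 was at 21.6, 22 and 21 FPKM and then at 23.2, 23.5 and 22.2 FPKM. That difference did not pass the test at 0.09 (95% interval -0.07 to 0.24, adjusted p = 0.26), though it did with the same median in each sample, at 0.27 (adjusted p = 0.0088). Gins2 had overlapping groups and a borderline call (-0.37, adjusted p = 0.044) that was lost without control replicate 2 or 3 or shCTCF replicate 1 or 2, with estimates of -0.34, -0.25, -0.34 and -0.31, and its exons overlap those of Gse1. Gins3 was at 5.10 ± 0.579 and 4.31 ± 0.290 FPKM, with overlap (95% interval -0.45 to 0.06). Mcm10 (-0.53) and Cdc45 (-0.62) both fell, with adjusted p of 0.0027 and 0.0011.

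In each of the 3 polymerases the catalytic polymerase gene fell and 1 accessory subunit did not pass the test. The largest fall in each enzyme was in another subunit, namely Prim2, Pold2 and Pole2. Polymerase alpha-primase makes the RNA-DNA primers. Its catalytic gene Pola1 was at 12.7, 9.46 and 14.1 FPKM in the controls and at 4.61, 4.26 and 4.81 FPKM after knockdown (-1.22, SE 0.14, adjusted p = 0.00012). Prim2, the large primase subunit, was at 24.4, 19.2 and 26.6 FPKM and then at 7.77, 10.1 and 9.23 FPKM (-1.27, SE 0.14, adjusted p = 8.6e-05). Neither gene had overlapping groups. Pola2, the accessory subunit, was at 14.3, 20.7 and 16.3 FPKM and then at 14, 13.7 and 13.8 FPKM, a difference of -0.27 (95% interval -0.57 to 0.03, adjusted p = 0.091), which passed without control replicate 1, at -0.38. Prim1, the small catalytic primase subunit, went from 18.1 ± 3.01 to 12.7 ± 2.45 FPKM with overlapping groups (-0.47, adjusted p = 0.029), and that call was lost without control replicate 1 or 3 or shCTCF replicate 1 or 2, with estimates of -0.39, -0.42, -0.47 and -0.35.

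Polymerase delta held the largest difference within 1 enzyme. Pold2, a structural subunit on chromosome 11 (5772183 to 5778259), was at 52.9, 59.3 and 54.3 FPKM in the controls and at 7.47, 8.45 and 9.78 FPKM in the shCTCF samples. This was the largest change of all 53 genes, with a log2 fold change of -2.57 (SE 0.10, adjusted p = 5.1e-07), and its exons overlap those of Aebp1, so that shared reads cannot be told apart. Pold1, the catalytic subunit, was at 21.9, 22.9 and 20.4 FPKM and then at 5.25, 6.26 and 5.61 FPKM (-1.76, SE 0.09, adjusted p = 1.6e-06). Pold3, which also serves in break-induced replication, was at 30.1, 36.5 and 29.8 FPKM and then at 32.1, 34.4 and 31.9 FPKM. Its groups overlapped and the difference was 0.04 (95% interval -0.18 to 0.25, adjusted p = 0.74), with -0.01 without control replicate 1 or control replicate 3. The ratio of Pold3 to Pold1 went from 1.48 ± 0.110 to 5.76 ± 0.314, and that of Pold2 to Pold1 from 2.56 ± 0.124 to 1.5 ± 0.210.

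In polymerase epsilon too, Pole3 did not pass the test while the other subunits fell. Pole, the catalytic subunit, was at 16.5, 16.3 and 15.9 FPKM in the controls and at 5.94, 6.34 and 6.6 FPKM after knockdown (-1.24, SE 0.08, adjusted p = 4.5e-06). Pole2, which ties the enzyme to the helicase, was at 12.6, 5.97 and 15.2 FPKM and then at 3.28, 3.07 and 3.36 FPKM. Control replicate 2 was far below the other controls, yet above all shCTCF samples, and the log2 fold change was -1.45 (SE 0.28, adjusted p = 0.0021). Pole3 and Pole4 encode small histone-fold subunits. Pole3 was at 42.5, 66.9 and 49.3 FPKM and then at 65.8, 66.4 and 59.7 FPKM, with overlap through control replicate 2. The difference was 0.29 (95% interval -0.06 to 0.65, adjusted p = 0.12), and without that sample it was 0.47 and passed. Pole4 went from 12.6 ± 1.86 to 9.45 ± 0.727 FPKM (-0.37, adjusted p = 0.024), and this call was lost without control replicate 1 or 3 or shCTCF replicate 1 or 2, with estimates of -0.32, -0.30, -0.36 and -0.33. The ratio of Pole3 to Pole went from 3.26 ± 0.774 to 10.2 ± 1.04.

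The sliding clamp gene rose, while most but not all genes of its loader fell. Pcna, the clamp gene on chromosome 2 (132075022 to 132078916), was at 91.5, 85.1 and 94.3 FPKM in the controls and at 134, 138 and 147 FPKM in the shCTCF samples. It rose in all 3 samples, with a log2 fold change of 0.62 (SE 0.07, adjusted p = 7.4e-05). Of the loader genes, Rfc5 was at 28.7, 32.2 and 28.4 FPKM and then at 11.5, 14.1 and 11.2 FPKM (-1.22, SE 0.10, adjusted p = 2.2e-05). Rfc2 was at 89.9, 91.1 and 84.9 FPKM and then at 46.2, 47.1 and 45.8 FPKM (-0.92, SE 0.06, adjusted p = 5.3e-06), and Rfc1, the large subunit, fell less (-0.45, adjusted p = 0.00051). The Rfc1 call was lost in the single row with the highest mean, at -0.19. For Rfc5 and Rfc2 the shCTCF ranges lay well below the controls. Rfc3 was at 21.5, 21.4 and 23.8 FPKM and then at 20.5, 24.1 and 24.5 FPKM, a difference of 0.05 with overlap (95% interval -0.17 to 0.26, adjusted p = 0.66). Rfc4 was listed at 0 FPKM in every sample, but control samples held 278, 35 and 275 of its fragments in the count table and shCTCF samples 87, 74 and 99, and there it fell (log2 fold change -1.17, SE 0.20, adjusted p = 0.00022, edgeR). Its exons overlap those of Eif4a2. The ratio of Pcna to Rfc2 went from 1.02 ± 0.0882 to 3.01 ± 0.164.

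Genes of single-stranded DNA binding and Okazaki fragment maturation also differed among themselves. RPA coats single-stranded DNA, FEN1 trims the flap of each fragment and LIG1 seals the nick. Lig1 was at 36.9, 38.6 and 32.5 FPKM in the controls and at 12.3, 12.2 and 11.8 FPKM after knockdown (-1.5, SE 0.08, adjusted p = 2.4e-06), and its exons overlap those of Zswim9. Rpa3, the small RPA subunit, was at 30.2, 18.1 and 31.2 FPKM and then at 9.5, 8.14 and 10.9 FPKM (-1.36, SE 0.20, adjusted p = 0.00052). Control replicate 2 was the lowest control for Rpa3, but no samples overlapped. The other RPA genes fell less, with -0.31 for Rpa1 and -0.29 for Rpa2, and neither passed with the same median in each sample, at -0.13 and -0.11. The Rpa2 call was also lost without control replicate 1, at -0.24, and without shCTCF replicate 1, at -0.21.

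Fen1 was at 15.7, 17.5 and 13.5 FPKM in the controls and at 21.5, 21.8 and 21.8 FPKM in the shCTCF samples. Every shCTCF sample was higher, with a log2 fold change of 0.46 (SE 0.10, adjusted p = 0.0033). This value is the sum over 3 transcript accessions whose shares varied from sample to sample. In control replicate 2 the accession with the highest mean held all 17.5 FPKM, whereas in shCTCF replicate 2 it held 6.24 of 21.8 FPKM, so that the estimate for that accession alone was -0.38. The ratio of Fen1 to Lig1 went from 0.431 ± 0.0194 to 1.80 ± 0.0541. Dna2, a nuclease and helicase that acts on long flaps, was scarce, at 3.11, 3.69 and 2.32 FPKM and then at 2.33, 3.03 and 2.87 FPKM. The difference was -0.10 with overlap (95% interval -0.46 to 0.26, adjusted p = 0.58), it was 0.036 with the same median in each sample, and it was 0.015 without control replicate 2.

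The fork protection genes showed a graded pattern. TIMELESS and TIPIN form a pair that travels with the fork. Timeless was at 16.6, 18.8 and 14.3 FPKM in the controls and at 4.9, 4.26 and 4.59 FPKM after knockdown (-1.65, SE 0.11, adjusted p = 7e-06), one of the 3 largest falls among the 53 genes. Tipin was at 20.7, 22.6 and 22.1 FPKM and then at 14.7, 14.5 and 15.6 FPKM (-0.52, SE 0.07, adjusted p = 0.00037). Both genes were lower in every shCTCF sample, but Tipin by a smaller amount, and its call was lost in the single row with the highest mean, at -0.10. Wdhd1, which links the helicase to polymerase alpha, was at 11.7, 9.19 and 10.2 FPKM and then at 10.7, 12 and 11.3 FPKM, with overlap and a difference of 0.12 (95% interval -0.12 to 0.36, adjusted p = 0.32). It passed with the same median in each sample, at 0.29 (adjusted p = 0.03).

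The nucleotide supply genes included the largest rise. Ribonucleotide reductase, which makes deoxynucleotides from ribonucleotides, is built from the large subunit RRM1 and the small subunit RRM2. Rrm2, on chromosome 12 (25393119 to 25399011), was at 69.6, 66.1 and 66 FPKM in the controls and at 175, 165 and 156 FPKM in the shCTCF samples. All shCTCF samples were more than 2-fold above all controls, with a log2 fold change of 1.29 (SE 0.06, adjusted p = 1.5e-06). Rrm1 fell from 54.3 ± 4.09 to 28.5 ± 2.01 FPKM (-0.91, adjusted p = 3.4e-05). The ratio of Rrm2 to Rrm1 was 1.24 ± 0.0687 in the controls and 5.84 ± 0.713 after knockdown. Dut, which hydrolyses dUTP and so keeps uracil out of DNA, was at 44.8, 42.9 and 44.5 FPKM and then at 16.7, 19.2 and 20 FPKM (-1.20, SE 0.08, adjusted p = 7e-06). The thymidylate genes also fell, with -0.94 for Tyms, the synthase, and -1.17 for Tk1, the salvage kinase (adjusted p of 4.3e-05 and 0.0012). Tk1 was low throughout, at 6.67 ± 1.31 and 2.46 ± 0.870 FPKM, and its exons overlap those of Afmid.

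The count table covers the same samples as the FPKM values, so it checks the processing and is not an independent repeat. With edgeR, 32 of the 54 genes could be tested, and 18 were lower, 7 were higher and 7 did not pass, compared with 34.3% lower and 34.8% higher among all 7341 genes tested. Whether a gene had counts depended on its annotation. All 28 replication genes with 1 transcript accession were tested, but only 4 of the 26 with 2 or more, because a fragment shared by several accessions was not assigned to any. The other 22 genes, which had few or no counts, are described by FPKM only. Of 31 genes tested on both tables, 20 were called the same way, 0 were called in opposite directions, 4 passed on FPKM only, 4 on counts only and 3 on neither. Among the 27 of them with 1 accession all 27 had the same sign, and the counts gave fold changes that were higher by a median of 0.16 on the log2 scale (range -0.15 to 0.35), close to the difference between the medians of all genes on the tables, -0.02 and -0.17.

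Of the 6 largest falls on FPKM, Pold1 and Pole2 could be tested on both tables, whereas Pold2, Timeless, Lig1 and Dbf4 could not. On counts the log2 fold change was 1.46 for Rrm2 (SE 0.07, adjusted p = 6.3e-09, edgeR), 0.80 for Pcna, 0.86 for Orc1, -1.62 for Pold1, -1.59 for Pole2, -1.18 for Pole and -1.12 for Mcm3. The genes that passed on counts only were Pold3 (0.24, adjusted p = 0.02), Rfc3 (0.33, adjusted p = 0.019), Gins4 (0.27, adjusted p = 0.021) and Pole3 (0.35, adjusted p = 0.023), all of them higher, and with scaling by library size only 3 genes in all were higher. Mcm7 gave 0.06 on counts against -1.33 on FPKM, the largest disagreement, but only 4 to 15 of its fragments per sample fell on exon parts of a single accession. For Orc4, with 4 to 31 counts per sample, the signs also differed (-0.16 against 0.60) and neither passed. Among nucleotide supply genes only Rrm1 and Rrm2 were tested on counts, so that their median there, 0.35, is no estimate for the 5 genes.

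**Figure D3:**
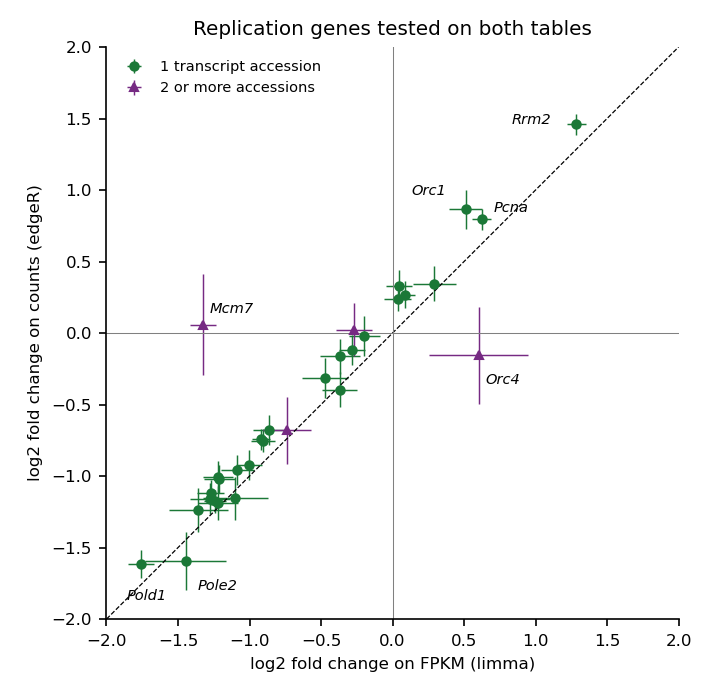
Log2 fold change (shCTCF against control) on counts with edgeR (y axis) against that on FPKM with limma (x axis) for the 31 replication genes tested on both, with bars of 1 SE and a dashed line of equality. The 27 genes with 1 transcript accession (circles) follow the line with a small upward offset of 0.16, and Mcm7, with few assignable counts, stands apart at -1.33 and 0.06.

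Other genes of the same pathways were counted on FPKM to place the replication genes, beside 44.2% lower and 28.8% higher among all genes tested. Of 26 other initiation and fork factors, 19 were lower and 2 were higher, with a median of -0.61. They included Mtbp, which helps to load CDC45 (17.5 ± 2.46 to 4.92 ± 0.662 FPKM, log2 fold change -1.65), and Ssrp1, a subunit of the histone chaperone FACT (-1.45), while Fam111a, a PCNA-binding protease, rose (0.64). Of 8 histone supply and chromatin assembly genes 7 were lower and 1 was higher, with a median of -0.56. Nasp (-1.05) and Hat1 (-0.89) fell and Chaf1b, a subunit of the assembly factor that PCNA recruits, rose (0.48), although only 4 of the 8 were lower with the same median in each sample.

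Of 32 other nucleotide synthesis genes, 24 were lower and 5 were higher, with a median of -1.01 beside -0.17 for all genes. Shmt2, the mitochondrial serine hydroxymethyltransferase that feeds one-carbon units, went from 229 ± 22.6 to 35.4 ± 1.84 FPKM (log2 fold change -2.66, SE 0.08, adjusted p = 1.7e-07), and Mthfd1 of the same pathway fell by 1.95 on the log2 scale. Samhd1, which breaks down deoxynucleotides, rose from 14.8 ± 0.944 to 30.0 ± 1.43 FPKM (0.98, SE 0.08, adjusted p = 1.6e-05), and Ctps2, a CTP synthase, rose by 0.86. The E2F, DP and pocket protein genes encode the transcription factors named above and their repressors. Of these 13 genes, 5 were lower and 4 were higher, with a median of -0.03. These shares, 38.5% and 30.8%, were near those of all genes tested, 44.2% and 28.8%. With the same median in each sample 5 of the 13 were lower and 6 were higher, and the median turned to 0.11. E2f4 (-1.69) and the pocket protein gene Rbl1 (-0.97) fell, whereas E2f3 (0.61) and E2f6 (0.34) rose. The lowest and highest values of that list, -2.20 and 0.77, belonged to genes that the naming rule left out.

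As a comparison, all 25 mitosis genes were lower, with a median of -1.44 and 21 of them by at least 2-fold, led by Plk1 (-2.63) and Cenpa (-2.61). Of 19 homologous recombination genes tested out of 21, 7 were lower and 2 were higher, with a median of -0.18. Their shares, 36.8% lower and 10.5% higher, were below the 44.2% and 28.8% of all genes tested. Fancd2 (-1.31) and Rad51d (-1.14) fell and Brca1 rose (0.30). The lowest and highest values among the recombination genes, -2.92 and 0.41, belonged to genes that the naming rule left out. The replication genes, with a median of -0.70 and 5 genes that rose, lay between these lists. The differences between lists were not tested.

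**Figure D4:**
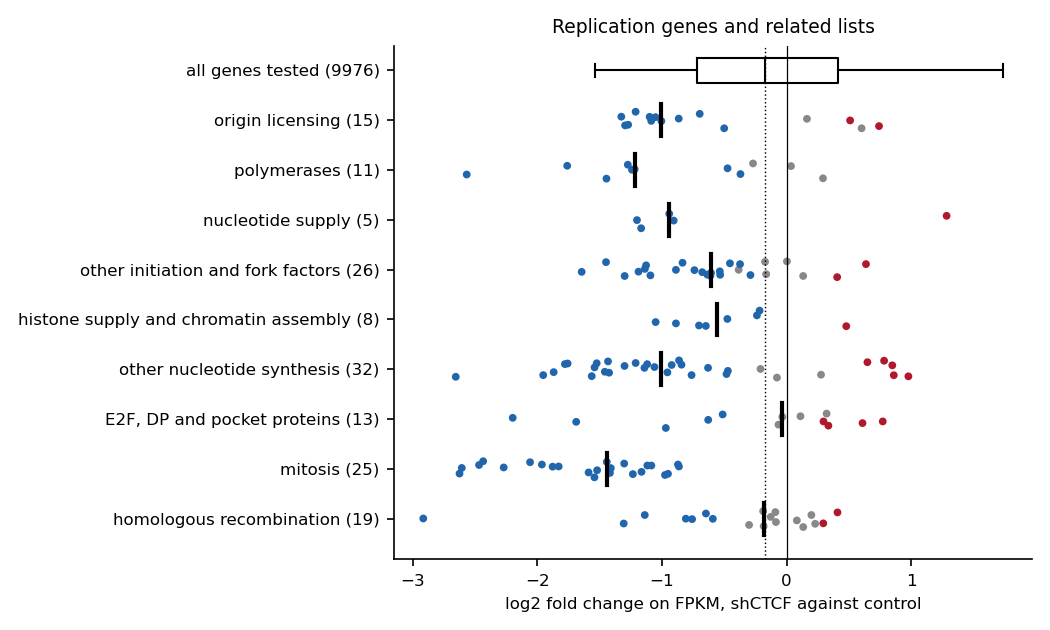
Log2 fold change on FPKM (x axis) of the genes in each list, with the number tested in brackets; blue points were lower, red points higher and grey points not past an adjusted p of 0.05, thick bars are medians and the dotted line is the median of all genes. The box gives the quartiles of all genes and its whiskers the 5th and 95th percentiles. All mitosis genes lie below 0 (median -1.44), while licensing (-1.0) and nucleotide supply (-0.94) hold red points on the other side of 0.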

How the data were processed

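RNA-seq was measured in 3 control and 3 shCTCF samples labelled as FGSCs, grouped by the labels. Stranded mRNA libraries were aligned by the authors to mm9 with HISAT2 (listed as version 4.8.2). The deposited counts are whole fragments per RefSeq accession, made by the authors with featureCounts without strand and without multi-overlap, as the file header shows. The deposited FPKM values were calculated by the authors with Cufflinks 2.2.1 and normalised for depth. Every value column belonged to a sample (0 without one).

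Accessions were named with a RefSeq gene table (assembly GRCm38.p6, names only), which matched 41186 of 41388 accessions with counts and 41685 of 41876 rows with FPKM. Those without a match carried up to 0.603% of a sample's counts. Values were summed per symbol. A gene entered the FPKM test at a mean of 1 FPKM or more and was tested on log2(FPKM + 1) with limma 3.58.1 (eBayes with trend), so fold changes of low genes are understated. Counts were tested with edgeR 4.0.16 (quasi-likelihood, TMM, filterByExpr), with DESeq2 1.42.0 as an alternative, in R 4.3.3. All tests were two-sided, with Benjamini-Hochberg adjustment over the genes tested and a threshold of 0.05. Both tests were tested on simulated data. A gene's group mean is given with its SD (n = 3). Total counts were 1686052 to 7044272, at which 3 counts equal 0.426 to 1.779 CPM; PCR copies were not told apart.

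The genes and lists were chosen with earlier results of these data known. Values in every sample are given for the 2 genes of each role group with the largest change past the threshold, for up to 2 that did not pass or went against their group, and for Ctcf. From each other list, up to 2 genes per direction with the largest change and at least 5 FPKM are named. Genes outside this rule were named after their values were seen. Sequences come from RefSeq windows and were placed on NCBIM37 (mm9) by exact match.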

Additional observations from a re-analysis of the deposited data

How the results depend on the processing

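The numbers of lower genes on FPKM (37) stayed between 31 and 37 under all alternatives, and those lower by at least 2-fold (21) between 17 and 22. Counts of calls, medians of the larger groups and Ctcf were compared with each alternative. Of these 154 comparisons, 141 were labelled the same, 12 moved and 1 reversed. The label allowed a change in size, since 31 lower genes in place of 37 were labelled the same. Of 109 for the medians of single role groups, 92 were labelled the same, 16 moved and 1 reversed. Of 1203 for single genes, 1097 kept their sign and call, 66 lost and 16 gained a call and 24 turned sign. The number of higher genes on FPKM (5) became 9 with the same median in each sample and 9 with quantile normalization. The number of higher genes on counts (7) became 3 with scaling by library size only, and leaving out 1 replicate gave 3 to 7 (3 without control replicate 1 or shCTCF replicate 2, and 4 without control replicate 3). With the same median in each sample the median was -0.53 for all genes of the group, -1.06 for the polymerases, -0.77 for nucleotide supply and 0.0083 for ORC, and 4 histone supply genes were lower. With counts in place of FPKM the median was -0.78 for the polymerases and 0.35 for nucleotide supply, where only 2 genes could be tested. With no filter 0 homologous recombination genes were higher with limma, and 2 at an unadjusted p under 0.05. On FPKM the signs that turned were those of Cdc7 (0.16 with the same median, 0.17 with quantile normalization, 0.92 in the row with the highest mean, where it passed as higher, -0.055 to 0.043 with 1 replicate left out), Dna2 (0.036 with the same median, 0.30 in the row with the highest mean, -0.23 to 0.015 with 1 replicate left out), Pold3 (-0.014 to 0.13 with 1 replicate left out) and Fen1 (higher as the sum over accessions, -0.38 and not past the threshold in the row with the highest mean). On counts they were Gins3 (0.028 with DESeq2 size factors, 0.020 with DESeq2), Mcm7 (-0.11 by library size) and Pola2 (-0.14 by library size), and with 1 replicate left out Gins3 lay between -0.11 and 0.039, Mcm7 between -0.087 and 0.16, Pola2 between -0.037 and 0.088 and Orc4 between -0.31 and 0.17. The cause of these differences was not tested. Where 1 replicate was left out of 3, the remaining spread was pooled over genes and groups.

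The replicate numbers are shared by the groups, but samples of the same number did not deviate together (correlations of -0.041, 0.018 and 0.0395 on FPKM), so they were not taken as pairs. With the replicate number as a block, 37 genes were lower and 5 higher on FPKM and 18 and 7 on counts, Ctcf was at -5.12, and Pola2 on counts was at -0.013. Control replicate 2 was the smallest library, with 1686052 counts.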
